A study of Camelina sativa with 12 samples.

Results

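Root transcriptomes of both *acdS* lines of camelina were set against those of both DH55 groups, 6 transgenic against 6 wild-type libraries, to find what the 2 lines share. The members were chosen by label alone and take in all 12 libraries of the series. The transgenic libraries, 3 from each line, came from single insert, homozygous lines in the DH55 background: *35S::acdS*, in which a double CaMV *35S* promoter drives the gene, and *rolD::acdS*, driven by the *rolD* promoter of *Agrobacterium rhizogenes*. They were set against 3 libraries of DH55 roots from soil given the endophyte *Pseudomonas migulae* 8R6, which makes ACC deaminase itself, and 3 libraries of DH55 control roots without bacteria or transgene. Every plant was 28 days old and had received 192 mM NaCl (15 dS/m) for 21 days. No library came from plants without salt, and no group carried both the transgene and the bacterium. Each promoter was represented by 1 line, so that a feature shared by the transgenic plants and the presence of *acdS* cannot be told apart. The matrix has no row for *acdS*, and the targeted gene could not be read as a check of the labels.

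ACC deaminase splits 1-aminocyclopropane-1-carboxylate (ACC), the direct precursor of ethylene, into ammonia and 2-oxobutanoate. Bacteria that make it can lower the ethylene that plant roots produce under stress, and the *acdS* gene of *Pseudomonas* sp. UW4 was put into camelina for that reason. *Camelina sativa* is a hexaploid relative of *Arabidopsis thaliana*, and most *A. thaliana* genes have 3 counterparts (homeologs) on different camelina chromosomes.

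Expression is given in CPM, counts scaled to library size, which stand in the matrix as whole numbers. The values of a library summed to between 887898 and 947036, and the depth in reads is unknown. The test took in the 48099 of 49932 genes that reached 1 CPM in 3 or more libraries. Differences are in log2(CPM + 0.5), transgenic minus wild type, which understates the change of low genes. Correlations between libraries were 0.938 to 0.974 within groups and 0.922 to 0.973 between transgenic and wild-type libraries. As tissue markers, 3 genes of the study's list were taken as Casparian strip genes by their descriptions alone. Among them, Csa11g025830 and Csa12g038900 share the ortholog AT4G20390, annotated as an uncharacterised protein family (UPF0497), so their worth as root markers is uncertain. The 3 genes summed to 23 to 40 CPM in the *35S::acdS* roots, 25 to 54 CPM in *rolD::acdS*, 43 to 64 CPM in DH55 8R6 and 55 to 68 CPM in DH55 control roots. The 4 light-harvesting genes of that list, marks of green tissue, summed to 5 to 20 CPM, 4 to 7 CPM, 3 CPM and 4 CPM in the same groups. One of these 4, Csa01g026130, was at 0 in each of the 6 wild-type libraries and in *35S::acdS* replicates 1 and 2. Sums in *35S::acdS* lay outside the ranges of both DH55 groups. Those in *rolD::acdS* overlapped DH55 8R6 for the Casparian strip genes and DH55 control for the light-harvesting genes. Since the study chose its list on these libraries, the markers are no independent check of the tissue. The part of both marker sets in the results below was not tested.

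Before any comparison of the lines, DH55 libraries stood apart from each other at the end of chromosome 4. From Csa04g058080 to the last gene of the chromosome, 372 tested genes formed a run in which neighbouring genes shared 1 pattern over the 12 libraries. In its steep part, up to Csa04g065800, the median gene stood at 95.7% to 102% of the mean of the 6 transgenic libraries in each of those 6 libraries, and at 101% in DH55 control replicate 1. It stood at 53.6% and 50.7% in DH55 8R6 replicates 1 and 3, and at 51.2% in DH55 control replicate 3. In the replicate 2 libraries it stood at 6.33% (DH55 8R6) and 5.56% (DH55 control). These medians rest on 187 genes with a mean of at least 5 CPM, and in 186 of them both replicate 2 libraries were below the other 10 libraries.

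The edge of the run was sharp. Csa04g058040, just before it, had 7, 6 and 8 CPM in the *35S::acdS* roots, 6, 7 and 7 CPM in *rolD::acdS*, 6, 4 and 6 CPM in DH55 8R6 and 7, 6 and 6 CPM in DH55 control roots. Csa04g058080, the first gene of the run, had 88, 88 and 71 CPM in the *35S::acdS* roots, 73, 83 and 78 CPM in *rolD::acdS*, 40, 11 and 44 CPM in DH55 8R6 and 79, 8 and 50 CPM in DH55 control roots. Only DH55 control replicate 1 among the wild-type libraries was in the range of the transgenic libraries there. In the last part of the run (74 genes of at least 5 CPM) the steps were smaller: 79.4% and 77.1% in DH55 8R6 replicates 1 and 3, 78.5% in DH55 control replicate 3, 53.1% in DH55 8R6 replicate 2, 55.3% in DH55 control replicate 2 and 101% in DH55 control replicate 1. On chromosome 4 before the run, the same medians were 98.4% to 101% in every library. Of 802 windows of 40 neighbouring genes over the 20 chromosomes, 6 held a library whose median deviated by more than 0.3 on the log2 scale, and all 6 lay in the run. Elsewhere the largest deviation in windows of this size was 0.21, but it reached 1.34 in windows of 10 genes. What sets these levels was not tested.

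**Figure D1:**
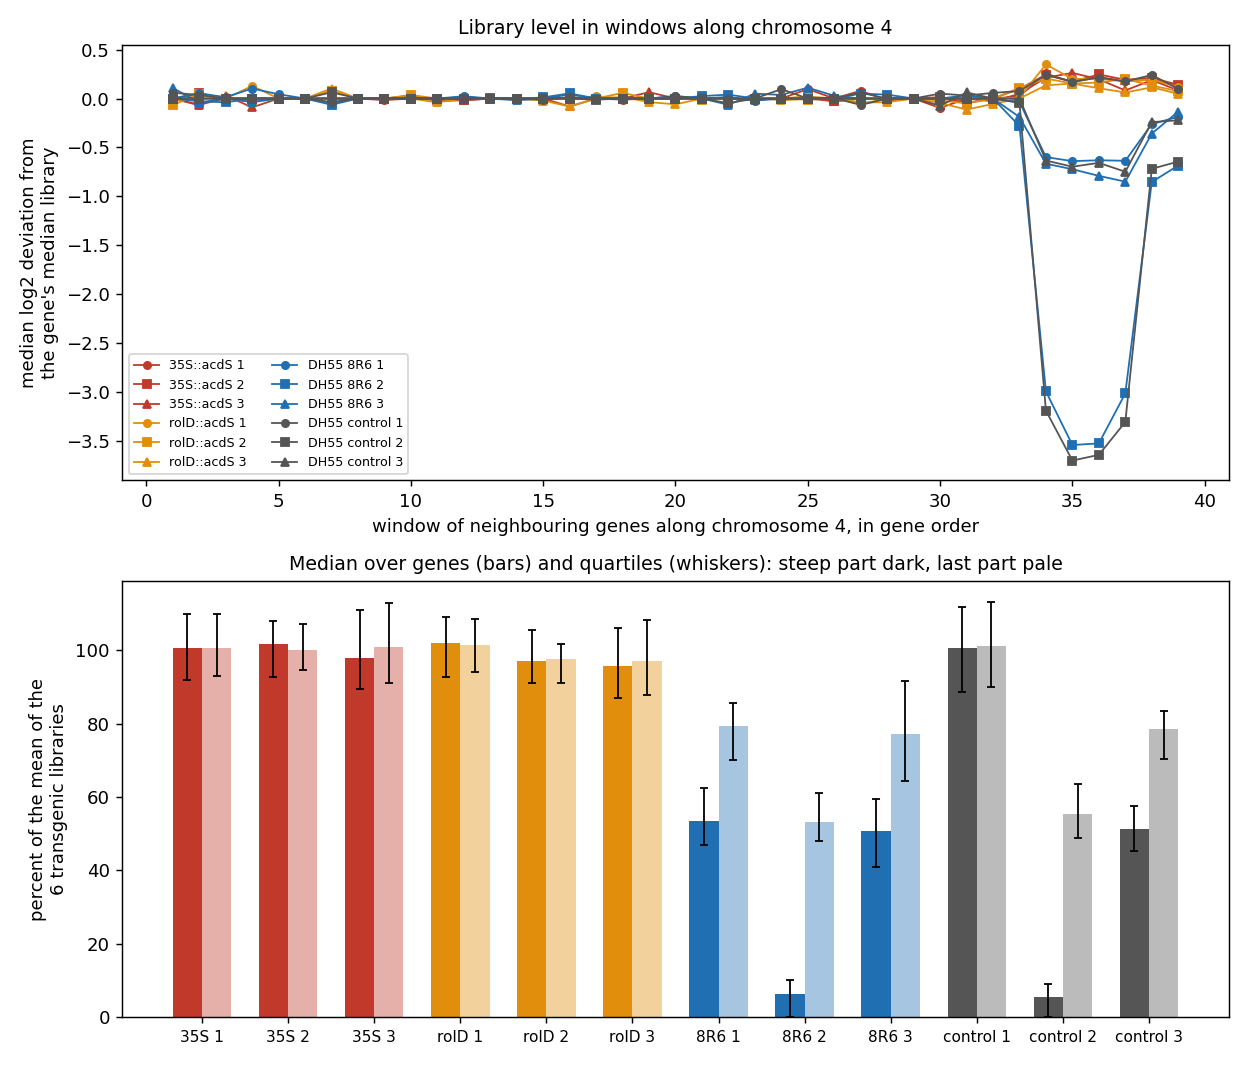
Upper panel, median log2 deviation of each library from the gene's median library in windows of neighbouring genes along chromosome 4 (genes of at least 5 CPM, in gene order); lower panel, level in each library as a percent of the mean of the 6 transgenic libraries, with bars for the median over genes and whiskers for the quartiles, in the steep part (dark, 187 genes) and the last part (pale, 74 genes) of the run. The 6 transgenic libraries and DH55 control 1 lie together near 100%, DH55 8R6 1, DH55 8R6 3 and DH55 control 3 between 50.7% and 53.6% in the steep part, and both replicate 2 libraries near 6%.

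The run carried much of what distinguished the lines from DH55 by size. Over all tested genes, 550 were above DH55 by more than 0.8 on the log2 scale and 271 of these lay in the run; 270 were below by that much, none of them in the run. The median difference was 1.38 over the 372 genes of the run and -0.01 over the other 47727. With an unadjusted p under 0.05, 301 genes of the run were higher and none lower, and none was called. Csa04g061650, an unannotated gene of the run, had 6, 4 and 5 CPM in the *35S::acdS* and 4, 5 and 4 CPM in the *rolD::acdS* libraries, against 3, 1 and 2 CPM in DH55 8R6 and 3, 1 and 2 CPM in DH55 control roots. Among genes annotated by the study, MYB2 (Csa04g066350), a transcription factor of water stress and abscisic acid responses in *A. thaliana*, lies in the last part of the run. MYB2 had 7, 4 and 6 CPM in the *35S::acdS* and 4, 7 and 8 CPM in the *rolD::acdS* libraries, against 3, 2 and 1 CPM in DH55 8R6 and 3, 1 and 2 CPM in DH55 control roots. A squamosa promoter-binding-like gene (Csa04g066220, difference 1.04), a *CYP709B* gene (Csa04g066100, 0.58) and a rubber elongation factor gene (Csa04g067870, 0.82) lie there too, with overlapping libraries.

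Few genes passed the test over both lines. With limma and Benjamini-Hochberg adjustment (limits of 0.05 for the adjusted p and 0.8 for the size of the log2 difference), 3 genes were called higher and 0 lower among 48099, or 0.00624%, none of them in the run. With an unadjusted p under 0.05, 2941 genes were higher (6.11%) and 3467 lower (7.21%). As a count without a model, 104 genes had every transgenic library above every wild-type library (0.216%) and 158 had every one below (0.328%). Outside the run these counts were 77 higher and 158 lower. The balance of directions depended on the scaling, with 491 higher and 168 lower over all tested genes after median-of-ratios scaling and 142 higher and 169 lower after quantile normalization. Without DH55 control replicate 1 the counts were 410 higher and 281 lower over all tested genes, but 198 higher and 281 lower outside the run. An absolute difference above 0.8 was reached by 37 of the higher genes (0.0769%) and 11 of the lower (0.0229%), and 22 of those 37 lay in the run; both directions together made 48 genes (0.0998%). The study's tables annotate 26 of the 262 genes (0.545%), 16 higher and 10 lower. The other 236 have no name in the sources used here.

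One called gene encodes a protein annotated as stress up-regulated Nod 19, of unknown molecular function. Csa18g035240 had 24, 16 and 7 CPM in the *35S::acdS* and 8, 11 and 10 CPM in the *rolD::acdS* libraries, against 1, 2 and 2 CPM in DH55 8R6 and 1, 1 and 2 CPM in DH55 control roots. No transgenic library came near the wild-type range, and the gene rose by 2.64 ± 0.28 (SE) on the log2 scale (limma, adjusted p = 0.0405). A second Nod 19 gene, Csa02g069860, had 3, 1 and 1 CPM in the *35S::acdS* and 1, 1 and 2 CPM in the *rolD::acdS* libraries, while it was listed at 0 in all 6 wild-type libraries. This gene did not pass the test (limma, adjusted p = 0.0822).

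Csa10g019050, a cellulose synthase-like G3 gene of a family related to the enzymes that make cell wall polysaccharides, was called as well. It had 25, 17 and 16 CPM in the *35S::acdS* and 10, 10 and 14 CPM in the *rolD::acdS* libraries, against 5, 3 and 2 CPM in DH55 8R6 and 6, 4 and 4 CPM in DH55 control roots. The rise was 1.81 ± 0.20 (SE) on the log2 scale (limma, adjusted p = 0.0483), and it was larger in *35S::acdS* (2.18) than in *rolD::acdS* (1.44), a difference of 0.73 between the lines with an unadjusted p of 0.0273 (limma). The third called gene, Csa17g018450, a cytochrome P450 of the CYP71B group, is on at the lowest level only. It had 1, 1 and 1 CPM in the *35S::acdS* and 2, 1 and 1 CPM in the *rolD::acdS* libraries, while it was listed at 0 in all 6 wild-type libraries (limma, adjusted p = 0.0397), so no fold is given. Together with Csa02g069860 it made up the 2 genes seen in every transgenic and no wild-type library; no gene showed the opposite. None of the 3 calls held in every alternative. With the replicate number as a block, 0 genes were called (limma, adjusted p = 0.105 for each of the 3). Against the DH55 control libraries alone 0 genes were called, and against the DH55 8R6 libraries alone 9. When single libraries were left out, the difference stayed between 2.45 and 2.88 for Csa18g035240 and between 1.67 and 1.96 for Csa10g019050, but calls were lost. The call of Csa17g018450 was lost when *35S::acdS* replicate 2 or 3 was left out, and also without replicate 3 of *rolD::acdS*, DH55 8R6 replicate 1 or 2 or DH55 control replicate 2 (6 of 12 libraries, adjusted p up to 0.145 with limma). That of Csa18g035240 was lost without *35S::acdS* replicate 2, *rolD::acdS* replicate 2 or 3, any DH55 8R6 library or DH55 control replicate 2 (7 of 12, up to 0.164). That of Csa10g019050 was kept only without *rolD::acdS* replicate 1 or DH55 control replicate 1 (lost in 10 of 12, up to 0.164).

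**Figure D2:**
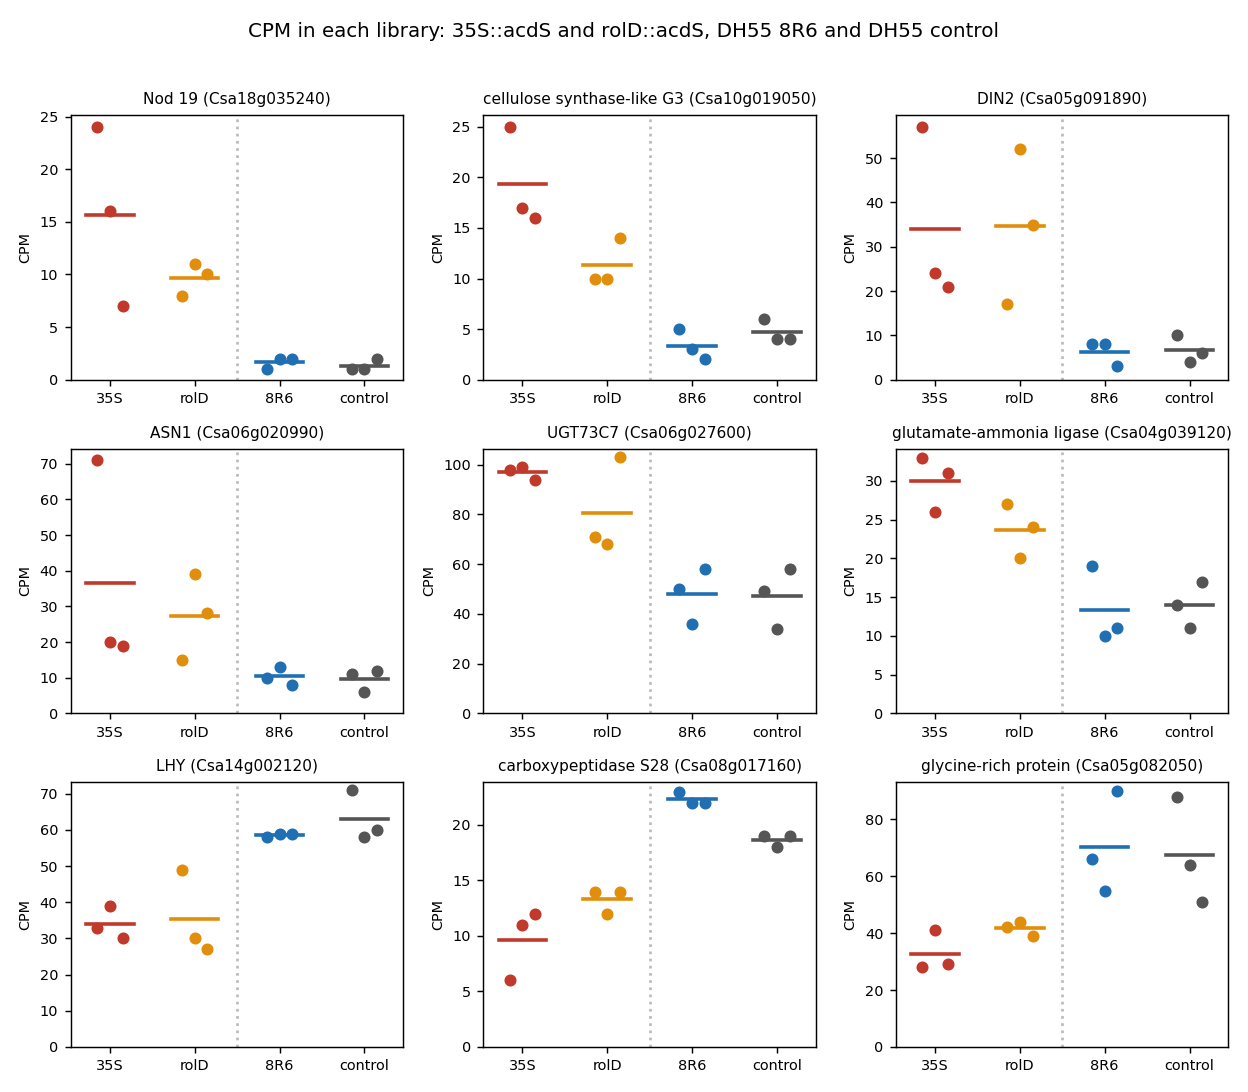
CPM in each library for 9 genes, with points for single libraries (replicates 1, 2 and 3 from left to right), short lines for group means and a dotted line between the transgenic and the DH55 groups. In every panel the 6 transgenic points lie wholly above or wholly below the 6 DH55 points, although the first *35S::acdS* library is far above the other transgenic libraries for ASN1.

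The dark-inducible genes lay above DH55 in both lines. In *A. thaliana* these genes respond to darkness and low sugar: DIN2 (AT3G60140) encodes a beta-glucosidase, DIN6 or ASN1 (AT3G47340) a glutamine-dependent asparagine synthase, and DIN10 (AT5G20250) a raffinose synthase family protein. All 7 listed genes were higher, with a median difference of 1.47 against -0.01 over all tested genes, and 7 of 7 had an unadjusted p under 0.05, against 6.11% of all tested genes that were higher at this limit. Set against both DH55 groups, *35S::acdS* alone had a median of 1.53, and *rolD::acdS* alone had 1.70. None was called. Like every list here, this one is made of genes that the study selected in these libraries, and its count is not independent evidence of the direction.

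DIN2 Csa05g091890 had 57, 24 and 21 CPM in the *35S::acdS* and 17, 52 and 35 CPM in the *rolD::acdS* libraries, against 8, 8 and 3 CPM in DH55 8R6 and 10, 4 and 6 CPM in DH55 control roots. The lowest transgenic library was above the highest DH55 library, and the difference was 2.27 ± 0.37 (SE; limma, adjusted p = 0.102). Its homeolog Csa16g005800 had 49, 17 and 18 CPM in the *35S::acdS* and 22, 44 and 30 CPM in the *rolD::acdS* libraries, against 12, 10 and 5 CPM in DH55 8R6 and 11, 5 and 9 CPM in DH55 control roots, again without overlap (1.69 ± 0.33, limma, adjusted p = 0.124). The lowest homeolog, Csa07g004940, averaged 6.33 CPM in transgenic and 1.17 CPM in wild-type roots, with overlapping libraries. The same transgenic libraries were high for each DIN2 gene, *35S::acdS* replicate 1 and *rolD::acdS* replicates 2 and 3.

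ASN1 Csa06g020990 had 71, 20 and 19 CPM in the *35S::acdS* and 15, 39 and 28 CPM in the *rolD::acdS* libraries, against 10, 13 and 8 CPM in DH55 8R6 and 11, 6 and 12 CPM in DH55 control roots. The groups did not overlap, the gap was 2 CPM, and the difference was 1.47 ± 0.36 (SE; limma, adjusted p = 0.166). Its homeolog Csa04g030180 averaged 9.17 CPM against 3.17 CPM and overlapped. Both listed DIN10 genes, Csa08g014090 and Csa13g023210, were higher by smaller amounts (0.67 and 0.57). Nitrogen genes of another kind stood beside ASN1: Csa04g039120, annotated as a glutamate-ammonia ligase, had 33, 26 and 31 CPM in the *35S::acdS* and 27, 20 and 24 CPM in the *rolD::acdS* libraries, against 19, 10 and 11 CPM in DH55 8R6 and 14, 11 and 17 CPM in DH55 control roots. That difference was 0.97 ± 0.17 (SE; limma, adjusted p = 0.102), and for its homeolog Csa09g061450 it was 1.18 ± 0.21 with overlapping libraries.

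The 3 homeologs of UGT73C7 (AT3G53160), a glycosyltransferase that puts sugar onto small phenolic molecules in *A. thaliana*, were the set in which every member was higher without overlap. Csa06g027600, the most abundant in CPM, had 98, 99 and 94 CPM in the *35S::acdS* and 71, 68 and 103 CPM in the *rolD::acdS* libraries, against 50, 36 and 58 CPM in DH55 8R6 and 49, 34 and 58 CPM in DH55 control roots. The difference of Csa06g027600 was 0.91 ± 0.16 (SE; limma, adjusted p = 0.102). Csa04g039100 averaged 36.8 ± 6.2 CPM in transgenic and 19.3 ± 4.9 CPM in wild-type roots (SD, n = 6 libraries each), and Csa09g061430 averaged 30.3 ± 7.5 CPM and 14.5 ± 3.3 CPM. Their differences were 0.94 and 1.03, and the intervals of all 3 differences overlapped. With the other 2 members of the glycosyltransferase list, 5 of 5 were higher, with a median of 1.05 in *35S::acdS* and 0.80 in *rolD::acdS*.

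Clock genes lay below DH55 in both lines. LHY (AT1G01060) is a morning MYB-like repressor at the core of the plant circadian clock. Csa14g002120 had 33, 39 and 30 CPM in the *35S::acdS* and 49, 30 and 27 CPM in the *rolD::acdS* libraries, against 58, 59 and 59 CPM in DH55 8R6 and 71, 58 and 60 CPM in DH55 control roots. Csa03g002180 averaged 36.5 ± 6.6 CPM in transgenic and 61.2 ± 6.8 CPM in wild-type roots, and Csa17g001540 averaged 38.3 ± 9.6 CPM and 66.3 ± 7.3 CPM (SD, n = 6 libraries each). The 3 homeologs lay without overlap below DH55, by 0.83, 0.75 and 0.81 on the log2 scale (limma, adjusted p = 0.102, 0.102 and 0.116), and the 2 lines differed from each other by at most 0.06. Without *rolD::acdS* replicate 1, the highest transgenic library for each, all 3 were called (limma, adjusted p = 0.0166, 0.0385 and 0.0265). Leaving out the library nearest to DH55 favours a call by itself, and without it the calls over all tested genes rose from 3 to 19. In the other 25 of 26 alternatives none of the 3 LHY genes was called. *REVEILLE 1* (Csa20g025380), a relative of LHY, averaged 10.7 CPM against 17.8 CPM and overlapped. Which hour of the day the roots were taken is not given in the sources used here.

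Other annotated genes without overlap were lower in both lines. A pair of serine carboxypeptidase S28 genes was lower by 0.85 (Csa08g017160) and 0.66 (Csa20g037790). Csa08g017160 had 6, 11 and 12 CPM in the *35S::acdS* and 14, 12 and 14 CPM in the *rolD::acdS* libraries, against 23, 22 and 22 CPM in DH55 8R6 and 19, 18 and 19 CPM in DH55 control roots. The 2 lines differed in both, *35S::acdS* having the lower level (*35S::acdS* minus *rolD::acdS*, -0.50 and -0.61, unadjusted p = 0.0306 and 8.9e-04 with limma). A ubiquitin-conjugating enzyme 29 gene (Csa00626s010, an enzyme class that passes ubiquitin on to target proteins) averaged 3.50 CPM against 7.17 CPM. A glycine-rich protein gene (Csa05g082050) averaged 37.2 ± 6.9 CPM against 69.0 ± 16.5 CPM, and a transmembrane 45B-like gene (Csa03g055330) averaged 17.5 ± 7.3 CPM against 34.7 ± 7.7 CPM (SD, n = 6 libraries each). An unknown protein gene (Csa05g037010) was lower by 0.83. An extensin-2-like gene listed by the study for both lines (Csa16g023060), of a class of cell wall glycoproteins, averaged 66.2 CPM against 112.8 CPM, and its libraries overlapped in 1 step, 89 CPM in *35S::acdS* replicate 3 against 83 CPM in DH55 8R6 replicate 2.

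Among higher genes, a cytochrome P450 of the CYP72A group (Csa19g021290) had 10, 8 and 8 CPM in the *35S::acdS* and 8, 8 and 8 CPM in the *rolD::acdS* libraries, against 7, 6 and 5 CPM in DH55 8R6 and 5, 3 and 4 CPM in DH55 control roots. NAI1-like Csa16g044520, a bHLH factor whose *A. thaliana* relative is needed for endoplasmic reticulum bodies, was higher by 0.53 in both lines together. Its difference was 0.83 in *rolD::acdS* but 0.23 in *35S::acdS* (between the lines -0.60, unadjusted p = 2.3e-04 with limma). A misato homolog (Csa12g004480) was higher by 0.48. Of unannotated genes, Csa19g007720 averaged 7.50 CPM against 3.67 CPM. On the lower side, Csa05g088750 averaged 45.2 CPM against 79.5 CPM, and Csa04g007650, outside the run, had 19 to 22 CPM in the 6 transgenic libraries, against 49, 68 and 71 CPM in DH55 8R6 and 26, 25 and 43 CPM in DH55 control roots (-1.04 ± 0.14, SE, limma, adjusted p = 0.0824).

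**Figure D3:**
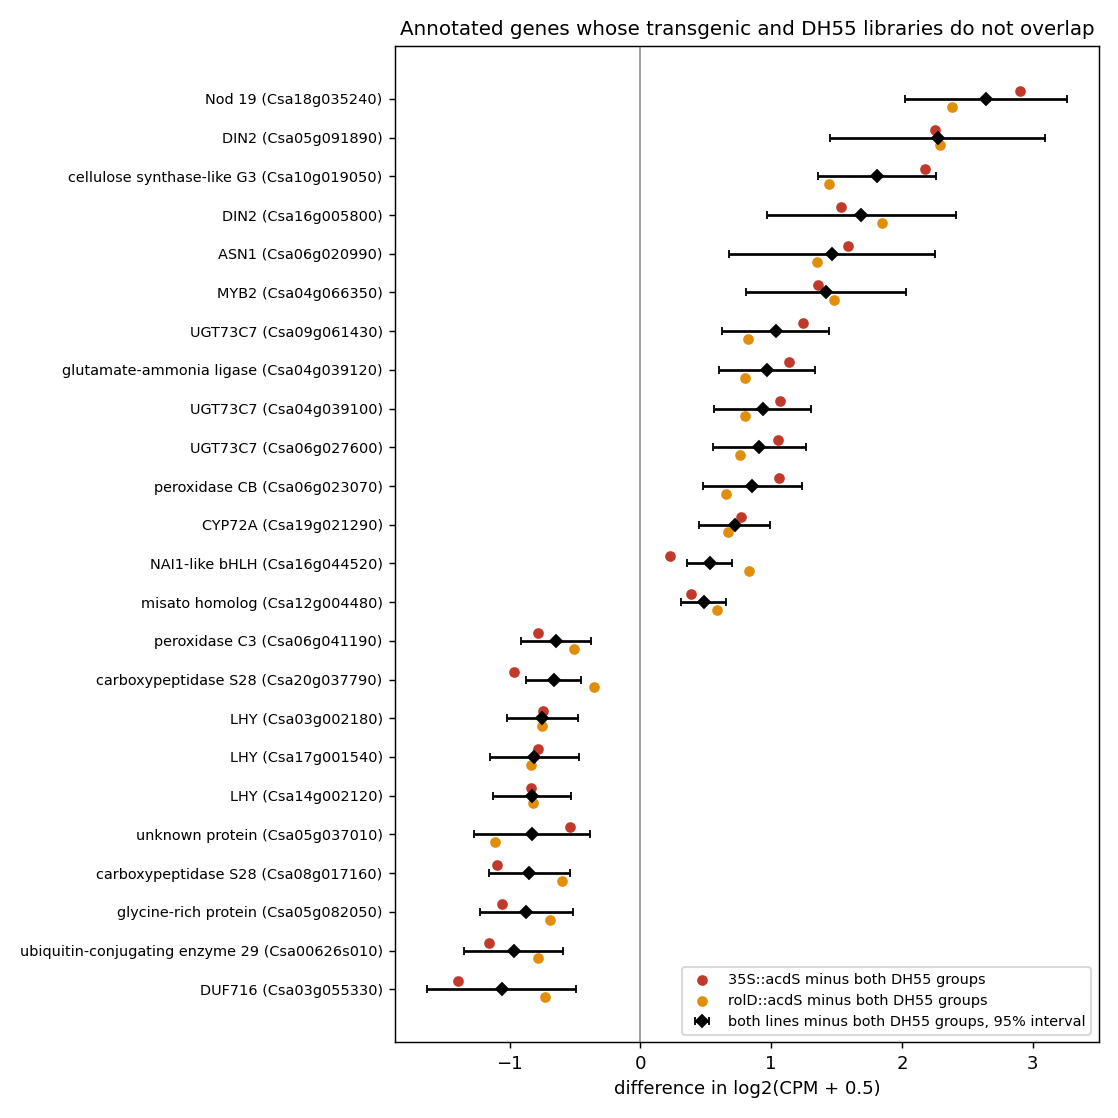
Differences in log2(CPM + 0.5) for the 24 annotated genes whose 6 transgenic and 6 DH55 libraries do not overlap and that are above 0 in both; black diamonds with 95% intervals give both lines minus both DH55 groups (limma), red and orange points each line alone. Both lines lie on the same side of 0 for every gene, from 2.64 for Nod 19 to -1.06 for the DUF716 gene, and since no overlap chose the genes, the shared side is not a finding.

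Peroxidases, which use hydrogen peroxide in the cell wall, divided: 2 genes were higher, Csa06g023070 (PRX34 in the paper) by 0.86 without overlap and Csa04g034500 (peroxidase CB in the paper) by 0.79, and 6 of 6 others were lower, among them peroxidase C3 Csa06g041190 (21, 28 and 30 CPM in the *35S::acdS* and 37, 34 and 25 CPM in the *rolD::acdS* libraries, against 50, 41 and 43 CPM in DH55 8R6 and 41, 50 and 47 CPM in DH55 control roots). Of the 9 tested genes that the study lists for both lines, 8 were higher and 1 lower, 2 were called (0.00624% of all tested genes) and 6 did not overlap (0.545%); they were selected on these libraries. GH3 gene Csa17g080380, of a family that couples auxin and related acids to amino acids, was among them with 8, 5 and 2 CPM in the *35S::acdS* and 3, 1 and 4 CPM in the *rolD::acdS* libraries, against 1, 0 and 0 CPM in DH55 8R6 and 1, 1 and 0 CPM in DH55 control roots.

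Homeologs mostly lay on 1 side together. In 53 of 55 sets of 2 or more annotated genes with the same *A. thaliana* ortholog, every member differed from DH55 in the same direction, and 2 sets divided. These sets hold only genes that the study selected in these libraries, which fixes part of the agreement. Reads that fit several homeologs may have been shared between them in the counting, and homeologs are not independent of each other here.

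The other lists show how far the lines went together. For reference, the means of both lines lay above both DH55 means in 16.8% of all tested genes and below both in 20.2%. Low-oxygen genes (LBD41, plant cysteine oxidase, pyruvate decarboxylase and SRO4 homeologs) were lower in 8 of 8, with both line means below both DH55 means in 8 of 8 and a median of -1.24. *rolD::acdS* alone had a median of -1.66, *35S::acdS* alone had -0.84, and the libraries overlapped widely. LBD41 Csa15g002200, for example, had 14, 22 and 54 CPM in the *35S::acdS* and 22, 12 and 12 CPM in the *rolD::acdS* libraries, against 53, 56 and 56 CPM in DH55 8R6 and 24, 33 and 80 CPM in DH55 control roots. Summed over the 8 genes, *35S::acdS* replicate 3 (252 CPM) was at the level of the DH55 8R6 libraries (223 to 288 CPM), and *35S::acdS* replicate 2 (100 CPM) at that of DH55 control replicate 1 (104 CPM).

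In the lists of phenolic and sulfur metabolism no gene was called. For flavonoids and anthocyanins 4 of 5 were higher and 1 was lower, each with an unadjusted p under 0.05 over both lines, and with medians of 1.22 in *35S::acdS* and 1.41 in *rolD::acdS*, among them a malonyltransferase gene of phenolic glucosides (Csa12g082380, 56, 17 and 20 CPM in the *35S::acdS* and 20, 32 and 44 CPM in the *rolD::acdS* libraries, against 16, 7 and 13 CPM in DH55 8R6 and 17, 5 and 15 CPM in DH55 control roots). For glucosinolates, the sulfur-rich defence compounds of the cabbage family, 5 of 5 were higher with medians of 0.86 and 0.94, but only 2 had an unadjusted p under 0.05 over both lines, and none had one in *35S::acdS* alone. Pathogenesis-related 1-like genes Csa12g010010 and Csa10g008480 were lower in both lines (by 1.44 and 0.98), in a list of defence genes that divided, 3 higher and 5 lower.

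Jasmonate genes were on 1 side by the sum of both lines but not in each. All 13 were higher over both lines (median 0.83, 9 with an unadjusted p under 0.05, against 6.11% of all tested genes), with a median of 1.24 in *rolD::acdS* and -0.01 in *35S::acdS*, and 11 of 13 differed between the lines at an unadjusted p under 0.05, against 7.53% of all tested genes. Jasmonate sulfotransferase gene Csa20g009360 had 9, 4 and 22 CPM in the *35S::acdS* and 162, 45 and 72 CPM in the *rolD::acdS* libraries, against 4, 4 and 23 CPM in DH55 8R6 and 29, 4 and 22 CPM in DH55 control roots. The 3 arginine decarboxylase 2 genes, which open polyamine synthesis, had medians of 1.23 in *rolD::acdS* and 0.27 in *35S::acdS*; Csa10g007430 had 152, 159 and 349 CPM in the *35S::acdS* and 422, 432 and 646 CPM in the *rolD::acdS* libraries, against 83, 146 and 257 CPM in DH55 8R6 and 211, 203 and 176 CPM in DH55 control roots. Ethylene response genes had medians of 0.12 in *35S::acdS* and 0.97 in *rolD::acdS*, with 5 higher and 4 lower; RAP2.6 Csa03g046520, an ERF family factor, had 6, 2 and 8 CPM in the *35S::acdS* and 56, 27 and 51 CPM in the *rolD::acdS* libraries, against 3, 1 and 2 CPM in DH55 8R6 and 12, 2 and 4 CPM in DH55 control roots.

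Sugar transport genes took the other side, with medians of 1.04 in *35S::acdS* and -0.10 in *rolD::acdS*. Auxin genes had 1.23 in *35S::acdS* and 0.47 in *rolD::acdS*, light-harvesting genes 0.97 and 0.38, and genes of raffinose, galactinol and inositol 0.68 and 0.41. Potassium transport genes, among them 3 SKOR homeologs that load potassium into the xylem, had -0.83 and -0.20, and lipid transfer proteins -0.69 and -0.30. Sucrose, starch and invertase genes had 0.21 and 1.11, cell wall genes 0.25 and 0.26 with both directions in each line, cytochrome P450 genes 0.08 and 0.28, aquaporins -0.55 and -0.56 with 2 of 5 below DH55 in both lines, and the only abscisic acid gene 0.39 and 0.85. Most of these genes were listed by the study for 1 line, which fixes part of such a division.

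**Figure D4:**
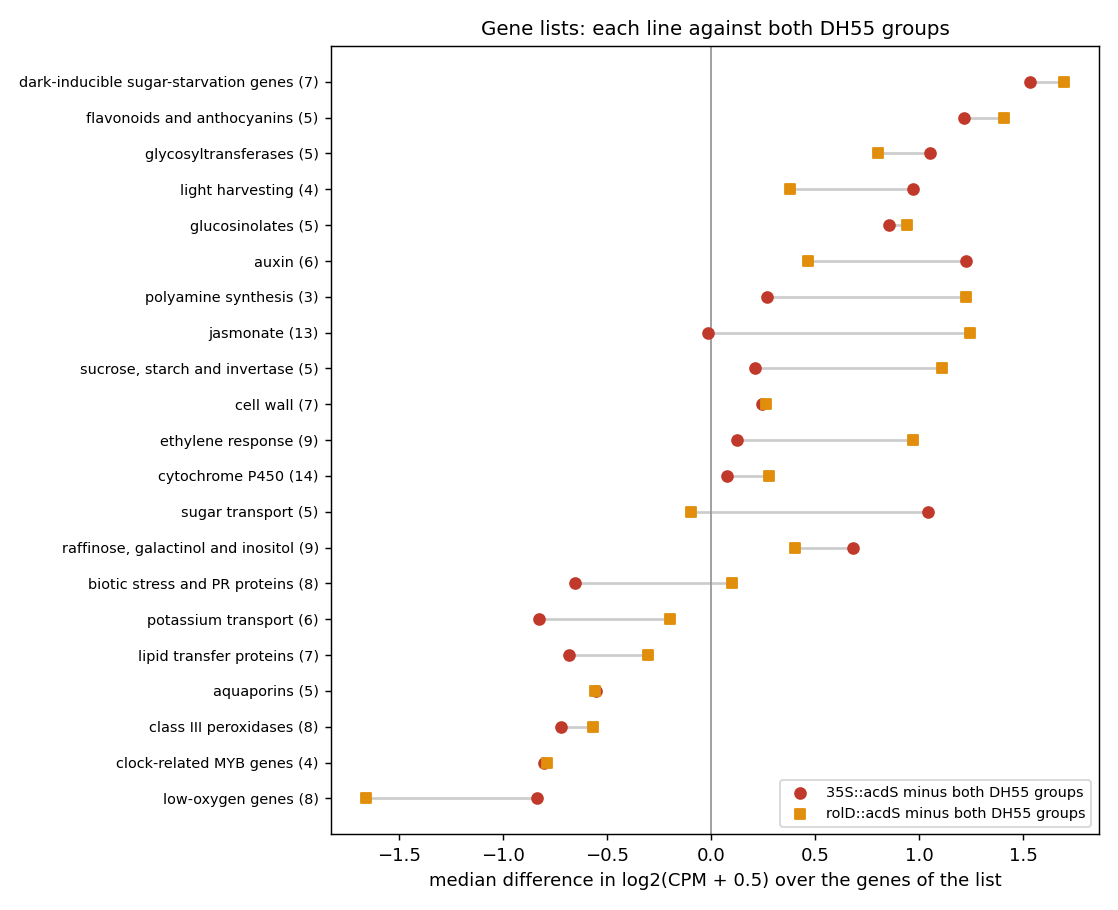
Median difference in log2(CPM + 0.5) over the genes of each list (number of tested genes in brackets), *35S::acdS* (circles) and *rolD::acdS* (squares) each minus both DH55 groups. Dark-inducible, flavonoid, glycosyltransferase, glucosinolate and clock-related lists have the 2 lines close together and on the same side of 0, whereas jasmonate (-0.01 and 1.24) and sugar transport (1.04 and -0.10) lie at about 0 in 1 line.

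Each line alone, against both DH55 groups, gave 7 called genes in *35S::acdS* (5 higher, 2 lower, 0.0146%) and 4 in *rolD::acdS* (2 higher, 2 lower, 0.00832%), with the same limma fit. Between the lines, 2 genes were called higher in *35S::acdS* and 0 lower (0.00416%), and 3620 (7.53%) had an unadjusted p under 0.05. Both called genes went from 1 CPM to 0 without spread within groups, so these calls rest on the prior of the fit. Between DH55 8R6 and DH55 control, 0 genes were called, and 2604 (5.41%) had an unadjusted p under 0.05 with limma.

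Likeness of the lines was also read from comparisons that share no library. Across 48099 genes, *35S::acdS* minus DH55 control and *rolD::acdS* minus DH55 8R6 had Pearson r = 0.23 and Spearman rho = 0.18. With an unadjusted p under 0.05 in both, 718 genes remained, 559 with the same sign and 159 with opposite signs. *35S::acdS* minus DH55 8R6 and *rolD::acdS* minus DH55 control had r = 0.38 and rho = 0.24, with 673 of 758 such genes on the same side. Without the run the 2 values of r were 0.13 and 0.28, while within the run alone they were 0.72 and 0.79. The pair with no transgene contrast, *35S::acdS* minus *rolD::acdS* with DH55 8R6 minus DH55 control, had r = 0.16 with or without the run, and 226 of 329 genes on the same side. As a background, an unadjusted p under 0.05 was reached by 7.12% of genes in *35S::acdS* minus DH55 control, 13.0% in *rolD::acdS* minus DH55 8R6, 12.1% in *35S::acdS* minus DH55 8R6 and 6.86% in *rolD::acdS* minus DH55 control. These are descriptions across genes, which are not independent replicates.

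Genes listed by the study for 1 line were read in the other line in the same way, an analysis chosen after the values were seen. Of 95 genes listed for *rolD::acdS* alone that were higher there than in DH55 control, 72 were higher in *35S::acdS* than in DH55 8R6 (75.8%, against 55.1% of all tested genes that were higher in *rolD::acdS* than in DH55 control), and of 27 lower genes 25 were lower (92.6% against 58.6%). Of 92 genes listed for *35S::acdS* alone and higher there, 63 were higher in *rolD::acdS* than in DH55 8R6 (68.5% against 54.4%), and of 137 lower genes 79 were lower (57.7% against 55.3%). The same reading of the differences that set no transgenic group against DH55 gave shares as high, though it is not free of *acdS* either. Of 26 genes listed for *P. migulae* 8R6 alone and higher there than in DH55 control, 24 were higher in *35S::acdS* than in *rolD::acdS* roots (92.3%, against 48.6% of all tested genes that were higher in DH55 8R6 than in DH55 control). Of 14 lower genes 13 were lower (92.9% against 50.6%).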

How the data were processed

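Root RNA of 4 groups of 3 replicates was sequenced on stranded libraries. Per the labels and the study's methods, the authors used Trimmomatic for trimming and STAR for alignment (NCBI transcripts and the camelina reference, release 100), took gene counts and gave CPM, with DESeq and edgeR for normalization and their own tests; versions are not given in the sources used here. The deposited values are a normalized score, CPM that stand as whole numbers (100% of values; the rounding is read from the values), and not read counts, so no count test was run and depth is unknown. The median standard error of the main difference was 0.25 for genes under 2 CPM and 0.094 for genes of 20 to 100 CPM.

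From these values log2(CPM + 0.5) was fitted with limma 3.58.1 in R 4.3.3 (4 group means, eBayes with trend, 8 residual and 2.59 prior degrees of freedom), with Benjamini-Hochberg adjustment over 48099 genes; 166 genes had no spread within groups and rest on the prior. The study calls the replicates biological; the labels do not say how plants were divided among them, and p-values measure the spread between these samples. Calls needed an adjusted p no higher than 0.05 together with a log2 difference larger than 0.8 in size. Figures used Python 3.11.15 with matplotlib 3.10.9. The fit was tested on simulated data.

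Named genes were those called, up to 12 per direction by p among genes without overlap past 0.8 and at a mean of at least 2 CPM, genes the study lists for both lines, list members without overlap, and genes at 0 on 1 side. Csa12g004480, Csa16g044520, Csa20g037790, other list members and the genes of the run on chromosome 4 fall outside this rule and were chosen after their values were seen. The members, lists and tests were chosen with earlier results of these data known. Lists and gene names come from the study's table (441 genes, 400 tested), which was chosen on these libraries; the reference gene table holds none of the matrix's identifiers, so lists of ethylene synthesis and signalling, ammonium assimilation, heat shock and ion transport by description were not applied. The authors' fold changes were not used. Chromosomes were read from the digits in the identifiers. The alternatives were other pseudocounts, filters, scalings, prior settings, a 2-group fit, a replicate block, 1 DH55 group alone, and leaving out each library.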

Additional observations from a re-analysis of the deposited data

Results flagged for a closer look

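Within the 6 transgenic or the 6 wild-type libraries of a named gene, 1 library lay far from the others in 16 of 116 groups. The limit used is passed by chance about 1 time in 20 only for 6 values of a single normal sample. Here each 6 joined 2 lines or 2 DH55 treatments, in whole numbers. Many of the genes were chosen by their values, and homeologs were counted separately. The 16 groups therefore cannot be set against that rate, and an excess over chance was not tested. The gap to the nearest library as a share of the range follows each. DH55 control replicate 1 was the library apart for LHY Csa14g002120 (highest at 71 CPM, 0.832), pathogenesis-related 1-like Csa10g008480 (lowest at 5 CPM, 0.788) and ASN1 Csa04g030180 (highest at 6 CPM, 0.648). DH55 control replicate 2 was lowest for both UGT74E2 homeologs, Csa14g007040 at 22 CPM (0.667) and Csa17g009070 at 9 CPM (0.649). DH55 8R6 libraries were apart for carboxypeptidase Csa20g037790 (replicate 1 highest at 25 CPM, 0.636), DIN2 Csa07g004940 (replicate 3 at 0, 0.683) and Csa13g014240 (replicate 2 at 1 CPM and the others at 0, 1).

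Among transgenic libraries, *35S::acdS* replicate 1 was lowest for carboxypeptidase Csa08g017160 at 6 CPM (0.711) and Csa05g088750 at 20 CPM (0.727), and highest for the CYP72A gene Csa19g021290 at 10 CPM against 8 CPM in the other 5 (1). *35S::acdS* replicate 3 was highest for plant cysteine oxidase Csa20g021600 at 12 CPM (0.645). *rolD::acdS* replicate 1 was highest for *REVEILLE 1* Csa20g025380 at 19 CPM (0.636) and for the CYP71B gene Csa17g018450 at 2 CPM against 1 CPM in the other 5 (1). *rolD::acdS* replicate 3 was highest for Csa19g007720 at 12 CPM (0.781) and at 0 for an unannotated gene of chromosome 5 (0.683). Several of these gaps are 1 step of 1 CPM.

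The lines differed by the test itself in 2 unannotated genes, on chromosomes 11 and 20, each with 1 CPM in all *35S::acdS* libraries and 0 in all *rolD::acdS* libraries, against 1 CPM in all DH55 libraries (limma, adjusted p = 0.0345). Their difference of 1.58 on the log2(CPM + 0.5) scale is set by the pseudocount and is no bound. Neither gene had any spread within groups, so its p-value rests on the prior of the fit, and the difference is 1 step of 1 CPM.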

How the results depend on the processing

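The sign of the difference held for all 58 genes tried under every alternative (1497 values: 1448 kept their side of the threshold, 36 lost and 13 gained a call). Many of these genes were named for libraries without overlap or were selected by the study in these libraries, which largely fixes the sign. For a gene without overlap, leaving out a library or changing the pseudocount cannot reverse it. No list median changed sign, and the median of the genes listed for both lines moved to 2.35 at a pseudocount of 0.1. Counts of calls were less stable. Over both lines, 3 genes became 0 with the replicate block, 6 with no trend, 0 against DH55 control alone and 9 against DH55 8R6 alone, and 0 to 22 when 1 library was left out. The 22 came without DH55 control replicate 1, where 5 of them lay in the run on chromosome 4; 19 came without *rolD::acdS* replicate 1. Between the lines, 2 became 0 with a pseudocount of 1, a mean of at least 5 CPM, median-of-ratios factors, the block or robust empirical Bayes, 8 with no trend, and 0 to 10 without 1 library. DH55 8R6 against DH55 control gave 1 with a pseudocount of 0.1, 2 with no trend, and 0 to 4 without 1 library. *35S::acdS* against both DH55 groups gave 3 with a mean of at least 5 CPM, 0 with median-of-ratios factors or the block, 3 with robust empirical Bayes, and 0 to 14 without 1 library. *rolD::acdS* gave 2 with a pseudocount of 1 or median-of-ratios factors, 0 with a mean of at least 5 CPM or robust empirical Bayes, 1 with the block, and 2 to 30 without 1 library, the 30 without *rolD::acdS* replicate 1. The cause was not tested.

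Genes without overlap numbered 659 after median-of-ratios scaling (491 higher, 168 lower; factors of 0.989 to 1.002 in transgenic and 0.995 to 1.015 in wild-type libraries), whose cause was not tested, 850 against DH55 control alone and 1852 against DH55 8R6 alone, where fewer libraries are compared, and 298 to 691 without 1 library; without DH55 control replicate 1, 212 of 410 higher genes lay in the run. Genes seen in all libraries of 1 side and none of the other numbered 2 to 10 without 1 library. With a mean of at least 5 CPM the values of r between disjoint comparisons were 0.31 and 0.47, and without 1 library they ranged from 0.10 to 0.38, from 0.25 to 0.47 and, for the pair that sets no transgenic group against DH55, from 0.042 to 0.23.

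Chosen after the data were seen, leaving out DH55 8R6 replicate 2 and DH55 control replicate 2 gave 0 calls over both lines, 0 between the lines, 0 in *35S::acdS*, 575 genes without overlap, and r of 0.26 for the second pair and 0.084 for the pair that sets no transgenic group against DH55. Leaving out the run gave r of 0.13 and 0.28 for the first 2 pairs. No label ties the replicate numbers to a shared batch, and not every same-numbered pair deviated together, so the numbers were not taken as pairs. A batch shared by some of them was not tested. Same-numbered libraries of different groups had correlations of their deviations from -0.14 to 0.40 (median 0.11, 10 of 18 above 0.1). Different numbers had a median of -0.039, with 7 of 36 above 0.1. The replicate 2 libraries of DH55 8R6 and DH55 control share the pattern on chromosome 4. Under the block all 3 calls had an adjusted p of 0.105 (limma). Genes with an unadjusted p under 0.05 rose under it from 6408 to 7315 over both lines and from 2604 to 3596 between the DH55 groups (limma).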

Other observations

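By chromosome, 32 of the 104 genes that lay above DH55 without overlap were on chromosome 4, and 27 of these in its run; on chromosome 4 before the run the share of genes without overlap in either direction was 0.41%, against 0.492% of all genes outside the run. Summed over the 274 tested genes of the steep part, expression was 5726 to 6116 CPM in the 6 transgenic libraries, against 3603, 786 and 3733 CPM in DH55 8R6 and 5934, 699 and 3576 CPM in DH55 control libraries. Between 0 and 2 of these genes were at 0 in a transgenic library, against 6, 114 and 11 in DH55 8R6 and 1, 126 and 7 in DH55 control libraries. Only 1 of the 187 genes of at least 5 CPM kept 50% or more of the transgenic mean in both replicate 2 libraries. DH55 8R6 replicate 2 and DH55 control replicate 2 belong to different treatments, as do the 3 libraries at 50.7% to 53.6%. In shorter windows of 10 genes, 30 of 3245 held a library deviating by more than 0.6 on the log2 scale, 26 of them in the run and 4 elsewhere. The largest deviation in those outside the run was 1.34.

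Of the study's listed genes that lie in the run by their identifiers, 2 have no row in the matrix and were not analysed here.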
